A study of Homo sapiens with 18 samples.

Results

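The centromere, kinetochore, condensin and cohesin genes described here are 48 listed members, followed in Raji cells over a time course of chemical induction. Members were found by their symbol in the gene table of the array, and each gene was read from the probe set with the highest mean among those that name 1 gene. In all, 47 of the 48 were measured, among 18417 genes. CENPJ was found by its gene ID under its current symbol, CPAP, and PMF1 lay on a probe set that names 2 genes and was left out. The measured members were divided by what their proteins do into 17 centromere genes, 17 kinetochore genes, 7 condensin subunits and 5 cohesin subunits, and CENPJ, a centriole assembly protein in spite of its name, stands apart.

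Raji is an established B-cell line from a Burkitt lymphoma. Per the labels, cultures were exposed to maslinic acid at 19 µM together with sodium n-butyrate at 3 mM and phorbol ester at 0.05 µM. Harvests were made after 0, 4, 8, 12, 24 and 48 h. Each time has 3 arrays that the labels call biological replicates, 18 in all, and nothing else in the labels says how separate the cultures were, so the tests measure the spread between these arrays. Of the compounds, maslinic acid is a triterpene from plants, phorbol ester is an activator of protein kinase C and butyrate blocks histone deacetylases. All 6 groups carry the same 3 compounds in the labels, the 0 h group included, so a difference between times cannot be told apart from time in culture or assigned to 1 compound.

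The values are log2 intensities normalized between arrays by the authors, so a difference of 1 is a 2-fold change. Array medians lay between 4.03 and 4.25. The spread of values was narrower on replicate 2 of 8 h (interquartile range 2.37) than elsewhere (2.74 to 3.16 on the other 17). For the members, the calls at 8 h are given with and without it. The B-cell list (7 of 8 markers measured) had a mean of 7.36 at 0 h and 6.21 at 48 h, whereas the lists for 5 other kinds of cell (fibroblasts, epithelium, red cell precursors, monocytes and T cells) had means between 2.94 and 4.19 on every array. Within these lists the T-cell gene CD3D went from 3.27 at 0 h to 4.84 at 24 h, and its part in the results was not tested. RNA came from whole cultures, in which fewer dividing cells and less RNA per cell cannot be told apart.

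Before a cell divides, its chromosomes are copied, held together, folded and attached to the spindle. Cohesin is the ring that holds sister chromatids together and also forms chromatin loops between divisions, and condensin is the related ring that folds chromosomes in mitosis. The constitutive centromere network sits on chromatin marked by the histone variant CENP-A, and on it the kinetochore is built in mitosis, whose NDC80 complex grips the microtubule ends. Many genes of the centromere, the kinetochore and condensin are transcribed mainly in the later part of the cell cycle, whereas the core cohesin subunits serve throughout it.

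Nearly the whole set was lower at the end of the time course. At 48 h against 0 h, 41 of 47 members fell and 0 rose by limma, against 8.11% of all genes tested that were called lower. The member median was -1.91 on the log2 scale, beside 0.05 over all genes. By complex, 15 of 17 centromere genes fell (median -1.91), 14 of 17 kinetochore genes (median -1.92), 7 of 7 condensin subunits (median -2.22) and 4 of 5 cohesin subunits (median -0.71). The moderated F test called 41 members as different from 0 h at some time, where 16.4% of all genes were called. On single arrays of 48 h the condensin median lay between -2.38 and -2.19 relative to the 0 h means, and the cohesin median between -0.91 and -0.65, so the arrays of these 2 complexes did not overlap.

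**Figure D1:**
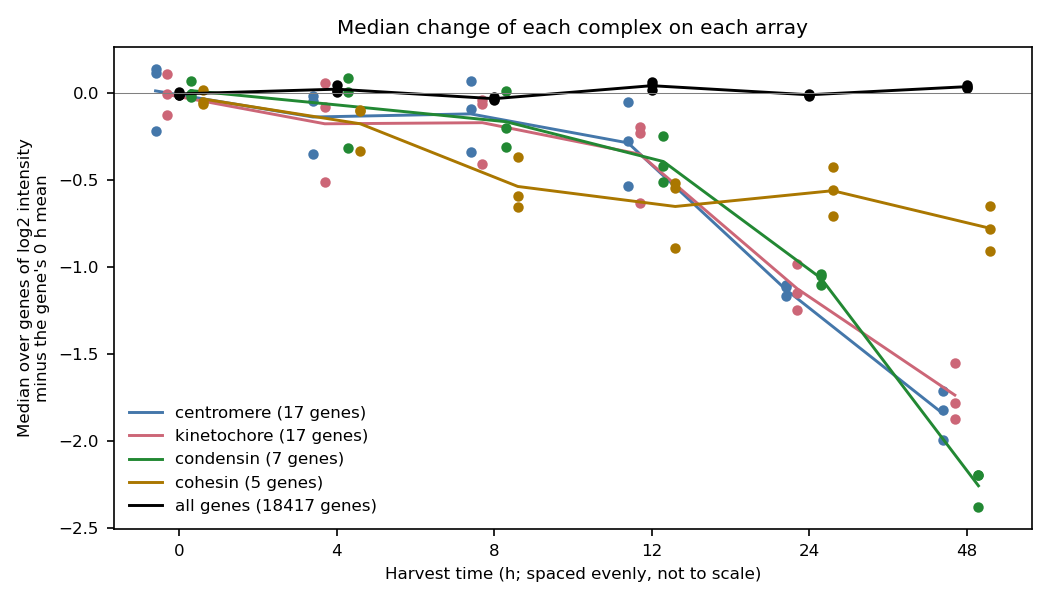
Median over the genes of each complex of log2 intensity minus the gene's mean at 0 h, against harvest time in hours (spaced evenly), with 1 point per array, lines through the mean of 3 arrays, and all 18417 genes in black. At 8 h the cohesin medians lie between -0.65 and -0.37 and those of the other 3 complexes between -0.41 and 0.07, so the ranges overlap. The medians of the other 3 complexes lie between -0.63 and -0.05 on the 12 h arrays and between -2.38 and -1.55 on the 48 h arrays.

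The timing differed within the set. At 4 h limma called 0 of 47 members lower, where 0.586% of all genes were, with 8 members at an unadjusted p under 0.05, each lower. Relative to the 0 h means, the member median at 4 h was 0.03, -0.02 and -0.37 on replicates 1, 2 and 3. Replicate 3 was the lowest array for 29, 30 and 30 of the 47 members at 0, 4 and 8 h, so members shifted together on single arrays. At 8 h limma called 3 lower (3.18% of all genes) and at 12 h 8 (4.14%). At 24 h the count was 33 (5.74%), and 0 members were called higher at 4, 8, 12, 24 or 48 h, where 1.16%, 3.5%, 3.91%, 6.74% and 6.92% of all genes were, with 0 members higher at an unadjusted p under 0.05. For 26 of the 47 members 24 h was the first time called, for 7 it was 48 h, and for 9 it was 8 or 12 h. Of the 5 cohesin subunits, 2 were first called at 8 h and 1 at 12 h.

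Among members that fell by 48 h, the median share of the 48 h difference already present at 12 h was 20.1% for the centromere, 17.7% for the kinetochore, 18.1% for condensin and 87.2% for cohesin (4 genes). At 24 h the shares were 59.1%, 58.6%, 52.4% and 78.2% in that order. The cohesin shares at 12 h were 38.1% (SMC1A), 71.5% (RAD21), 102.9% (STAG1) and 148.0% (STAG2). For RAD21, STAG1 and STAG2 they are taken over small 48 h differences, -0.65 to -1.04. On the log2 scale CENPK (-1.03), CENPL (-0.86), CENPH (-0.86), NDC80 (-0.84) and SPC25 (-0.76) differed more at 12 h than each cohesin gene but STAG2 (-1.54). The lowest mean of the time course came at 48 h for 42 of the 47 members. The exceptions were STAG1, STAG2 and MIS12 at 12 h, and SMC3 and CENPM at 24 h.

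Leaving out 1 array changed the early counts. With replicate 1 or 2 of 0 h, 1 or 2 of 4 h, 2 of 8 h or 2 of 24 h removed, 1 call was left at 8 h. At 12 h removing replicate 1 of 0 h left 1 call, removing replicate 2 of 0 h left 4, and removing replicate 1 or 2 of 12 h left 2. STAG2 was called at both times under each of the 25 alternatives.

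Between consecutive times, 9 members fell from 12 h to 24 h (0.554% of all genes were called lower) and 6 from 24 h to 48 h (0.331%). Calls in the other direction were 0 in both intervals, where 0.814% and 0.0706% of all genes were higher. The first 9 were CENPI, CENPK, CENPN, SGO1, SPC25, SKA1, SMC2, NCAPH and NCAPG2, and the 6 were CENPW, SGO1, SMC2, NCAPG, NCAPH and NCAPG2. Condensin thus gave 3 of the 9 and 4 of the 6, and cohesin gave none of either. From 4 h to 8 h and from 8 h to 12 h limma called 0 members, with 3 and 4 at an unadjusted p under 0.05, where 0.103% and 0% of all genes were lower and 0.119% and 0% higher. Removing replicate 1 or 3 of 12 h or replicate 1 of 24 h left 3 calls from 12 h to 24 h, removing replicate 2 of 24 h left 5, and removing replicate 3 of 48 h gave 14. Same-numbered arrays of 4 h and 8 h deviated together, and with the replicate number as a block 1 member was called lower from 4 h to 8 h. Without the block 1 member was called from 4 h to 8 h once replicate 3 of 8 h, 1 of 24 h or 3 of 48 h was removed.

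**Figure D2:**
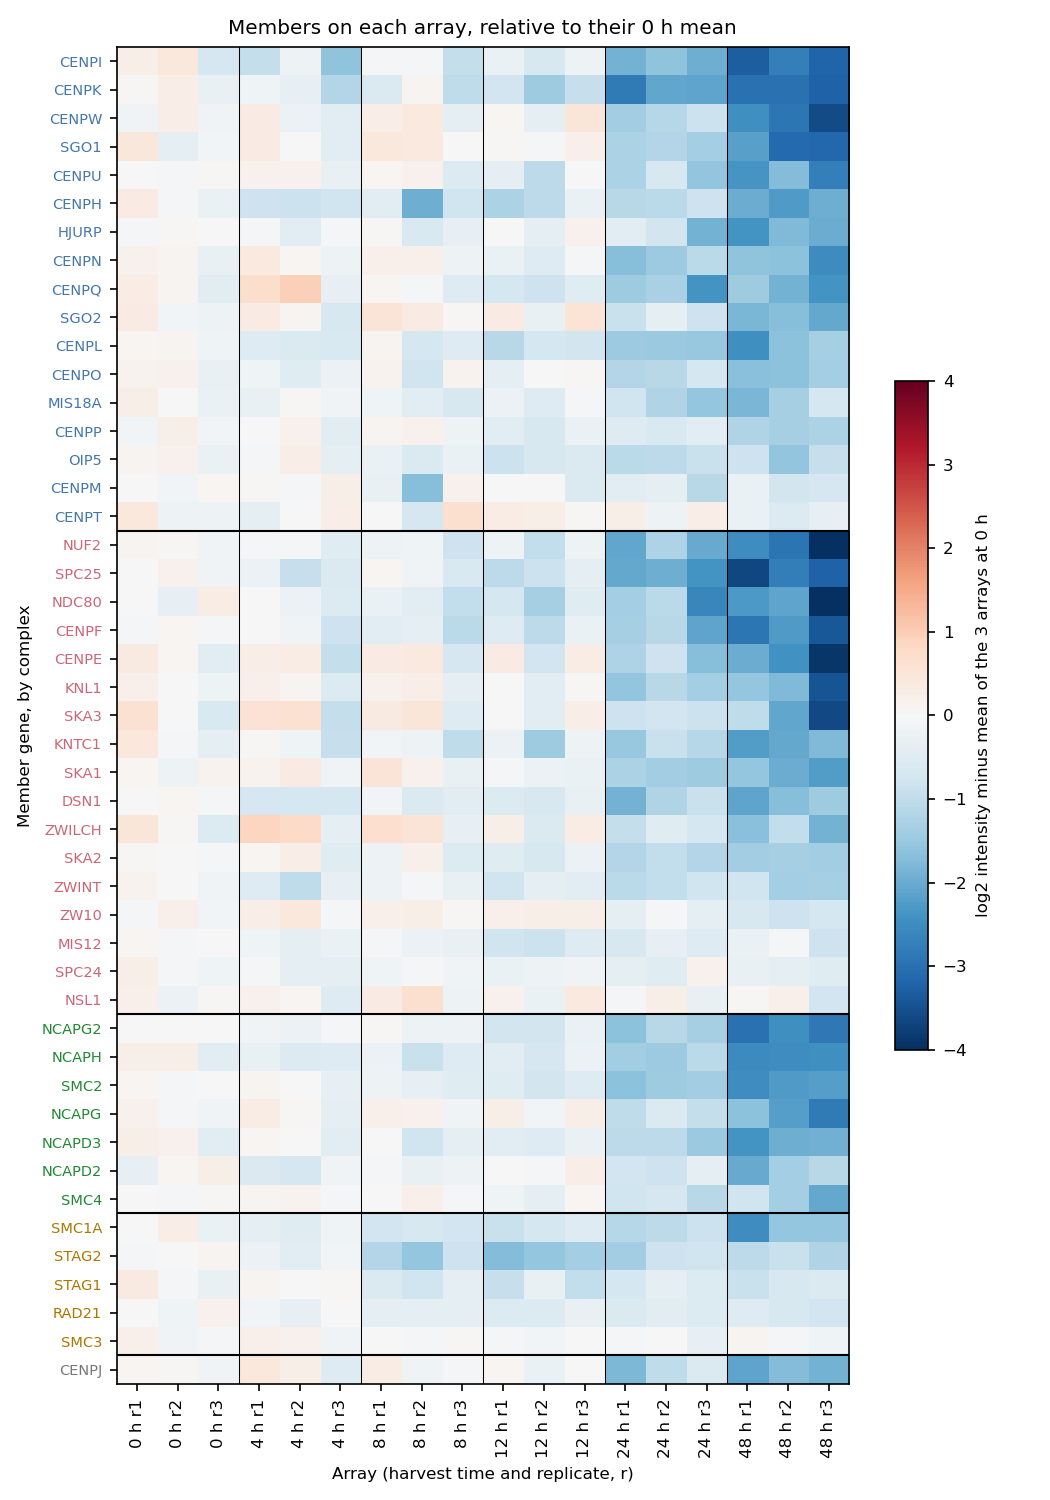
Log2 intensity of 47 members (rows, by complex from the centromere at the top to cohesin and CENPJ at the bottom) on 18 arrays (columns, by time and replicate, r), minus the gene's mean at 0 h, with blue for lower and red for higher. The columns of 24 h and 48 h are blue for most rows down to condensin, STAG2 is already blue at 8 h, and SMC3 stays near white throughout.

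Promoter windows are shown for the member of each complex with the largest fall at 48 h, for SPC25, which holds 2 kinds of motif, and for SMC3, which did not fall, the last 2 chosen after their values were seen. Each runs from 250 bases before to 50 bases after a listed gene start, in the gene's direction, as RefSeq gives it on GRCh38.p14. There are 35116 such windows for 27305 genes. The first listed for a gene was used, so other starts of a gene were not searched. Capitals mark matches to 2 motifs, searched on both strands. The first is the cell cycle genes homology region, CHR, searched as TTTGAA or TTCGAA, an element of promoters that are active late in the cell cycle. The second is the CCAAT box, which the factor NF-Y binds. The reverse complement of TTTGAA reads TTCAAA, and no 2 matches overlap in these windows.
NUF2, chr1:163321704-163322003, plus strand: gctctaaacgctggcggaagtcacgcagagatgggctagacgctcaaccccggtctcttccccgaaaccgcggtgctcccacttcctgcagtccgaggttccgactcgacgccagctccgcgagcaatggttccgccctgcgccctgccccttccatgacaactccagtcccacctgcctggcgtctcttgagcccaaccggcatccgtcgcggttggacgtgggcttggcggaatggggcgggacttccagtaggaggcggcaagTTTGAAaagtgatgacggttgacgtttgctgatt
SPC25, chr2:168890381-168890680, minus strand: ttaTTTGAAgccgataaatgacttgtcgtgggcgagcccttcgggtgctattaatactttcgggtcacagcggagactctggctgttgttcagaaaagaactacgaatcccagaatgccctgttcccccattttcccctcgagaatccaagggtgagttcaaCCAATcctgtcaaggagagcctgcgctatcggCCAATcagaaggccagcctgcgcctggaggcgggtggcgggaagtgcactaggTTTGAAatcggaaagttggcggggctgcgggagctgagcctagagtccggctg
CENPI, chrX:101100808-101101107, plus strand: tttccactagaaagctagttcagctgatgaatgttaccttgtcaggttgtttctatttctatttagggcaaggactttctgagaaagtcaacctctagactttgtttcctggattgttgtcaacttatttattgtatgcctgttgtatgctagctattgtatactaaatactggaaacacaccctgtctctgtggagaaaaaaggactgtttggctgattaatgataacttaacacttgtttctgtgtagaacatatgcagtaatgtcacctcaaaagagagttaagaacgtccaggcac
NCAPG2, chr7:158704755-158705054, minus strand: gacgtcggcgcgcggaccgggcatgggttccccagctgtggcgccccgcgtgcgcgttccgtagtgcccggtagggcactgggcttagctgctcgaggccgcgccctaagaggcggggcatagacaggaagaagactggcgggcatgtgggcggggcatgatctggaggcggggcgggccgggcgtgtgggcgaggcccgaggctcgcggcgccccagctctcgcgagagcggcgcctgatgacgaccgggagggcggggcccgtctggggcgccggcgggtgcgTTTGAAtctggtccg
SMC1A, chrX:53422679-53422978, minus strand: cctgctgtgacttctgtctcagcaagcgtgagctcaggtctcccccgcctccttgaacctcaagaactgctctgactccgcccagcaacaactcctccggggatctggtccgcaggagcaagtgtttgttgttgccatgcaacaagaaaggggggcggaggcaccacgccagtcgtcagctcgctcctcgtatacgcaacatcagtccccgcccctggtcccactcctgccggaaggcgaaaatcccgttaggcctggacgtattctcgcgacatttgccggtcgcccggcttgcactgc
SMC3, chr10:110567445-110567744, plus strand: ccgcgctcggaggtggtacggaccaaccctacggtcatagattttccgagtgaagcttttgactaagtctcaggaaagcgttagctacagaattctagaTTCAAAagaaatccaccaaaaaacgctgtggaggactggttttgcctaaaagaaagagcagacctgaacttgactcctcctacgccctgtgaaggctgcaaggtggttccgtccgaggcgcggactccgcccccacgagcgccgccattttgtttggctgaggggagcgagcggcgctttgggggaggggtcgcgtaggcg

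In NUF2 and NCAPG2 the CHR letters begin at positions 267 and 286 of the 300-base window, just downstream of the start. SPC25 carries them at position 248, next to the start, and again at position 4, with CCAAT letters at positions 163 and 195 between. The windows shown for CENPI and SMC1A hold neither motif, which leaves any other start of these genes unexamined. SMC3 holds the CHR letters on the opposite strand at position 100, well upstream of the start.

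Of the 40 measured members with a window, 20 held CHR letters, beside 16.6% of the 27305 genes in the table. Those 27305 include genes not among the 18417 measured here and were not matched to the members by kind of gene. CCAAT letters were in 21 of the 40 (52.5%, against 35.7% of all genes), and both together in 10 of the 40, against 6.6% of all genes. By complex, CHR letters were in 5 of 7 condensin windows, 8 of 15 kinetochore windows, 6 of 13 centromere windows and 1 of 4 cohesin windows, that of SMC3. An E2F-type site, searched on both strands as TTTGGCGC, TTTCCCGC, TTTGCCGC or TTTCGCGC, was in 4 of the 40 (10.0%, against 3.3%): STAG1, CENPU, OIP5 and MIS12. The 7 measured members without a window were CENPH, CENPL, CENPM, MIS18A, KNL1, KNTC1 and RAD21.

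In the constitutive centromere network, 10 of 12 genes were lower at 48 h, with a median difference of -1.92. CENPI, CENPK and CENPW had the largest differences. CENPI, with CENPK a subunit of the group that also holds CENPH and CENPM, stood at 7.47, 7.67 and 6.57 on the 3 arrays of 0 h, at 5.33, 5.64 and 5.28 at 24 h and at 3.93, 4.49 and 4.05 at 48 h. The 3 groups of arrays did not overlap, and the 48 h level was 8.46-fold below that of 0 h (difference -3.08, SE 0.33, adjusted p = 3.51e-06).

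CENPK was at 8.71, 8.92 and 8.35 at 0 h and at 5.69, 5.68 and 5.43 at 48 h, an 8.36-fold fall (adjusted p = 1.2e-06). Its difference was -1.03 at 12 h (adjusted p = 0.0386) and -2.34 at 24 h, so most of its fall lay before 24 h. The 12 h call was lost under 6 of 25 alternatives. CENPW, the small histone-fold partner of CENPT, was not called before 24 h. It was at 7.32, 7.71 and 7.30 at 0 h, at 7.51, 7.06 and 7.93 at 12 h, at 6.06, 6.29 and 6.59 at 24 h and at 4.99, 4.56 and 3.86 at 48 h. Its arrays at 12 h overlapped those of 0 h, and the step from 24 h to 48 h was -1.84 (SE 0.29, adjusted p = 0.00534).

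CENPT, which bridges the network to the NDC80 complex, gave the smallest difference of the centromere genes. It was at 4.86, 4.24 and 4.25 at 0 h and at 4.20, 3.89 and 4.14 at 48 h, a difference of -0.38 (SE 0.26, adjusted p = 0.418). The arrays of the 2 times lay side by side without overlapping. CENPM, the other member of the network not called, differed by -0.55 (SE 0.34, adjusted p = 0.335). Its value on replicate 2 of 8 h was 3.92, far below the 5.32 and 5.78 of the other 2 arrays of that time.

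CENPH was the 1 centromere gene called at 8 h. Its arrays read 5.49, 5.09 and 4.91 at 0 h and 4.70, 3.21 and 4.36 at 8 h, a difference of -1.07 (adjusted p = 0.0389) that lost its call without replicate 2 of 8 h and under 8 other alternatives. By 48 h it had reached 3.10 ± 0.17 (SD, n = 3), beside a lower quartile of 3.06 over all probe sets, so its fold of 4.19 (difference -2.07) is limited by the background. The remaining fallers of the network differed by -1.27 (CENPP) to -2.28 (CENPU) at 48 h, with CENPL, CENPN, CENPO and CENPQ between. CENPL was also called at 12 h (-0.86, adjusted p = 0.0307), a call lost under 5 of 25 alternatives.

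The 3 genes that load CENP-A onto centromeres all fell. HJURP, the CENP-A chaperone, went from 6.94 ± 0.05 to 4.89 ± 0.33 (SD, n = 3 each), a difference of -2.05 (adjusted p = 7.18e-05). MIS18A and OIP5, subunits of the complex that marks the site of loading, differed by -1.28 and -1.10, and MIS18A had most of that difference at 24 h (-1.18). The OIP5 means of 3.35 at 24 h and 3.26 at 48 h were near the lower quartiles of 2.97 and 3.06, which limits its difference. The shugoshins protect cohesin at centromeres until anaphase. SGO1 stood at 8.90, 8.10 and 8.35 at 0 h, at 8.50, 8.36 and 8.65 at 12 h, at 7.20, 7.29 and 7.09 at 24 h and at 6.27, 5.33 and 5.30 at 48 h. It thus fell in both late intervals, with differences of -1.31 from 12 h to 24 h (adjusted p = 0.0103) and -1.56 from 24 h to 48 h (adjusted p = 0.00602). SGO2 differed by -1.86 at 48 h (SE 0.25, adjusted p = 4.31e-05).

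**Figure D3:**
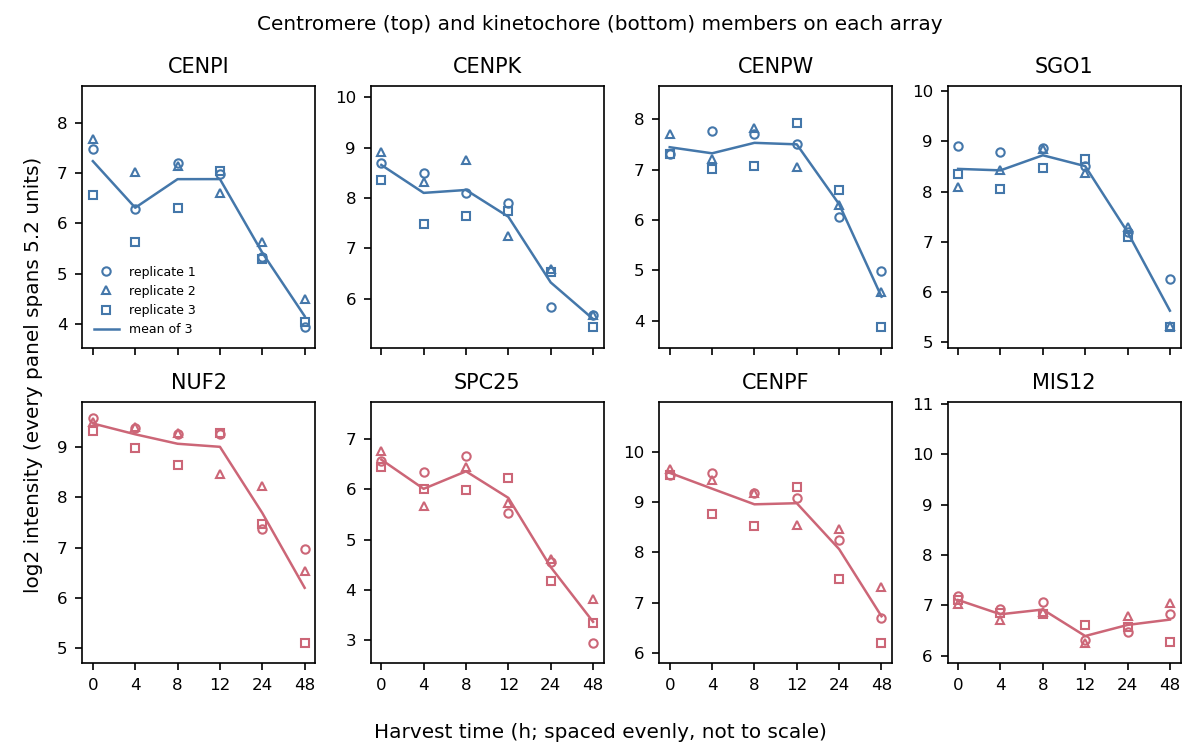
Log2 intensity of 4 centromere genes (top) and 4 kinetochore genes (bottom) on each array against harvest time in hours (spaced evenly), with a symbol for each replicate and a line through the mean of 3; every panel spans the same range. CENPW and SGO1 are not called before 24 h, SPC25 reaches 3.37 at 48 h, and MIS12 is lowest at 12 h, at 6.39.

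Within the NDC80 complex, the microtubule-binding rod of the kinetochore, 3 of 4 genes fell at 48 h. NUF2 was at 9.57, 9.50 and 9.32 at 0 h, at 7.38, 8.22 and 7.46 at 24 h and at 6.97, 6.53 and 5.10 at 48 h. It was 9.63-fold lower at 48 h (difference -3.27, SE 0.36, adjusted p = 5.52e-06), the fall ranked 15 of 18417 genes by size. SPC25 was at 6.57, 6.77 and 6.44 at 0 h, at 4.56, 4.63 and 4.19 at 24 h and at 2.94, 3.82 and 3.35 at 48 h, 9.35-fold lower (adjusted p = 7.83e-08). Its 48 h mean of 3.37 was close to the lower quartile of all probe sets at that time, 3.06, so the fold and its rank are limited by the background.

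NDC80 itself was at 8.51, 8.17 and 8.76 at 0 h and at 6.18, 6.38 and 4.28 at 48 h, a difference of -2.86 (SE 0.45, adjusted p = 0.000211). Replicate 3 of 48 h was the lowest, and without it the difference was -2.19, smaller than the -2.58 of CENPF. SPC24, the fourth subunit, was at 3.32 ± 0.22 at 0 h and 2.94 ± 0.09 at 48 h (SD, n = 3 each). That 48 h mean was below the lower quartile of its arrays, and the difference was -0.38 (adjusted p = 0.148).

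Of the KNL1 and MIS12 complexes, which link the NDC80 complex to the centromere, 3 of 5 measured genes fell at 48 h. KNL1, the scaffold for the checkpoint kinases, differed by -2.26, its partner ZWINT by -1.16 and DSN1, a MIS12 complex subunit, by -1.75 (adjusted p = 0.000229, 0.000318 and 2.25e-05). The MIS12 complex subunit NSL1 gave the smallest difference of the kinetochore genes. It was at 7.23, 6.79 and 7.06 at 0 h and at 7.09, 7.22 and 6.26 at 48 h, so the arrays overlapped (difference -0.17, SE 0.27, adjusted p = 0.765).

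MIS12 was called at 12 h and not later. Its arrays read 7.19, 7.03 and 7.10 at 0 h, 6.32, 6.24 and 6.60 at 12 h, 6.47, 6.78 and 6.58 at 24 h and 6.83, 7.04 and 6.28 at 48 h. The difference was -0.72 at 12 h (SE 0.18, adjusted p = 0.0157) and -0.39 at 48 h (adjusted p = 0.161). The F test over all times did not call it (adjusted p = 0.0699), and the 12 h call was lost without replicate 1 of 0 h or replicate 1 or 2 of 12 h. MIS12 and NSL1 thus gave 2 of the 6 members not called at 48 h, while their complex partner DSN1 fell.

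CENPE, the kinesin that carries chromosomes to the spindle equator, and CENPF, a protein of the outer kinetochore, differed by -2.76 and -2.85 at 48 h (adjusted p = 0.000328 and 3.79e-06). CENPF was at 9.54, 9.67 and 9.55 at 0 h and at 6.69, 7.31 and 6.19 at 48 h. Of the RZZ complex, which brings dynein and checkpoint proteins to the kinetochore, all 3 genes fell, with differences of -2.02 (KNTC1), -1.51 (ZWILCH) and -0.73 (ZW10). ZW10 also works in membrane transport between divisions, and its difference was the smallest of the kinetochore genes that were called (SE 0.15, adjusted p = 0.00208).

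The SKA complex couples kinetochores to shortening microtubules, and its 3 genes fell at 48 h, with differences of -1.92 (SKA1), -1.38 (SKA2) and -2.24 (SKA3). SKA1 was at 5.28, 5.01 and 5.34 at 0 h, at 3.94, 3.81 and 3.80 at 24 h and at 3.67, 3.23 and 2.96 at 48 h, where its mean of 3.29 was again near the lower quartile. SKA2 was the 1 member with 2 probe sets. The brighter gave -1.38 at 48 h and the dimmer -1.76, with -1.11 and -1.08 at 24 h. The reference table also lists a pseudogene, SKA2P1, on chromosome 9, with which a SKA2 probe set could share signal. Probe set numbers of the other members run by chromosome. In that order the brighter SKA2 probe set follows SMC2 on chromosome 9, and the dimmer lies between MIS12 on 17 and NDC80 on 18. SKA2 itself is on chromosome 17. The brighter probe set, the one placed by SMC2, gives every other SKA2 value and test here. Whether it reads SKA2P1 was not tested.

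The spread between arrays at 48 h was wide for part of the kinetochore. CENPE, NDC80, NUF2, KNL1 and SKA3 had SDs from 0.98 to 1.30, against a median SD of 0.35 over the members at 48 h and 0.22 over all genes. In these 5 genes replicate 3 of 48 h was the lowest array. SKA3, for example, was at 7.11, 6.04 and 4.53. Without that array their differences at 48 h ran from -1.56 (SKA3) to -2.72 (NUF2), each still called.

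**Figure D4:**
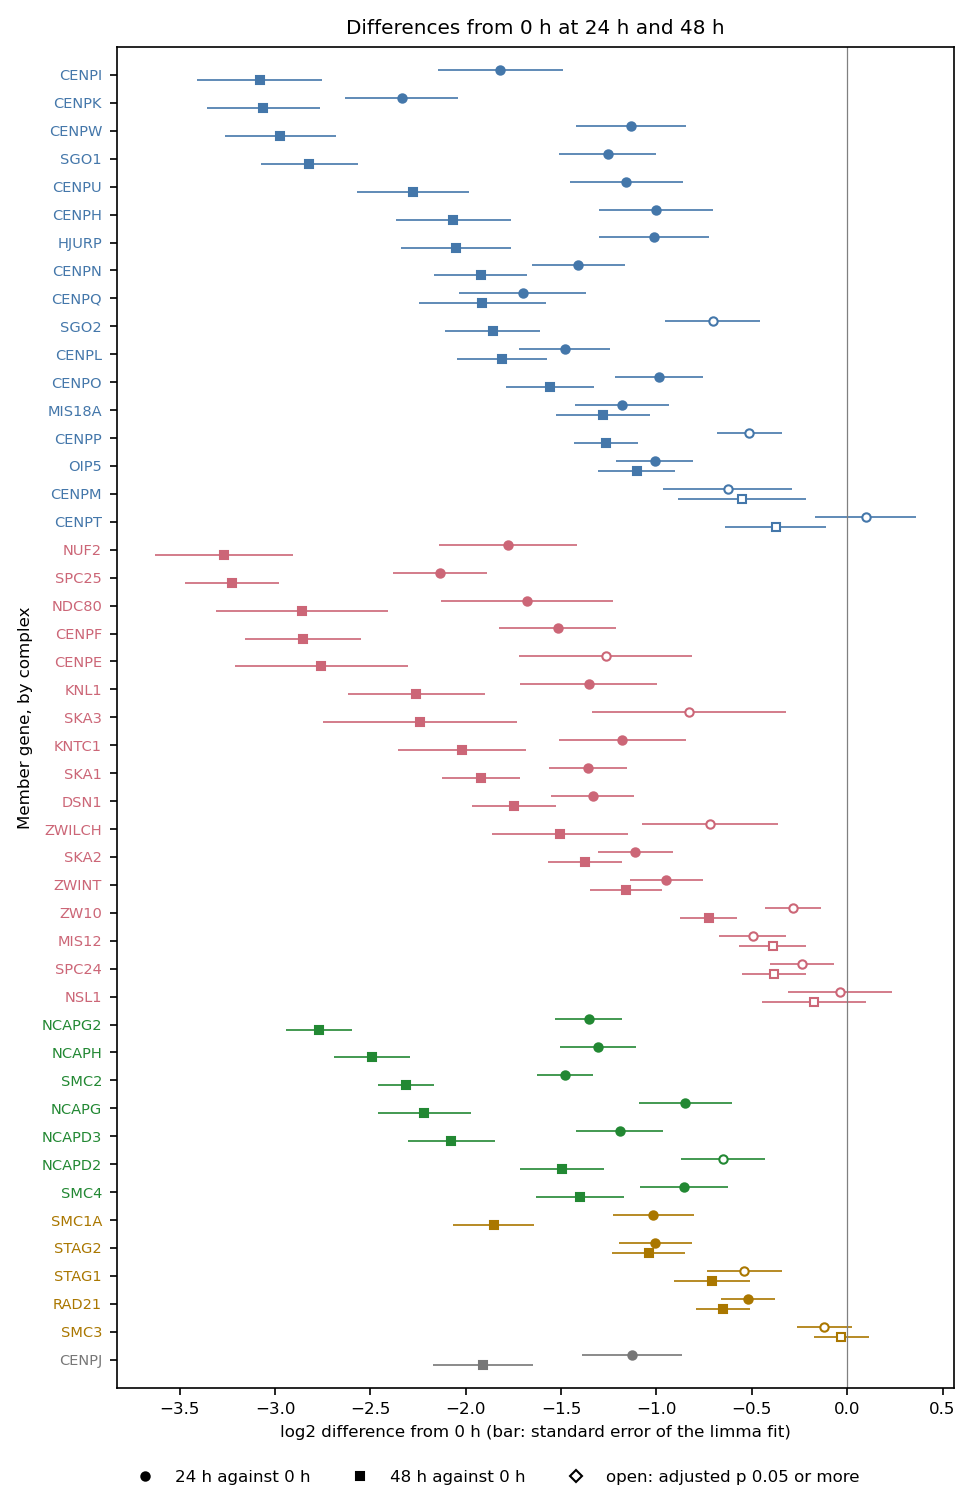
Log2 difference from 0 h of each of 47 members at 24 h (circles) and 48 h (squares), with the standard error of the limma fit; filled symbols passed an adjusted p of 0.05, and colours mark the centromere, kinetochore, condensin, cohesin and CENPJ from top to bottom. Squares lie to the left of circles for most genes down to condensin, while for MIS18A, OIP5, STAG2 and RAD21 both lie close together.

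All 7 condensin subunits fell by 48 h, and 6 of 7 by 24 h. NCAPG2, a subunit of condensin II, the form that works inside the nucleus from early mitosis, was at 7.69, 7.71 and 7.74 at 0 h, at 6.08, 6.61 and 6.39 at 24 h and at 4.73, 5.25 and 4.86 at 48 h. The fall was 6.82-fold (difference -2.77, SE 0.18, adjusted p = 7.65e-09) and the 3 groups of arrays did not overlap. NCAPH, the kleisin of condensin I, was at 7.15, 7.15 and 6.45 at 0 h, at 5.54, 5.47 and 5.82 at 24 h and at 4.37, 4.43 and 4.48 at 48 h, 5.62-fold lower (adjusted p = 1.32e-07).

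The 2 SMC subunits form the core of both condensins. SMC2 was at 9.90, 9.79 and 9.81 at 0 h, at 9.33, 9.10 and 9.33 at 12 h, at 8.20, 8.41 and 8.45 at 24 h and at 7.35, 7.57 and 7.64 at 48 h. It was called at 12 h (-0.58, adjusted p = 0.0195), 24 h (-1.48) and 48 h (-2.31), and the 12 h call was lost without replicate 1 of 0 h or replicate 2 of 12 h. SMC4 gave the smallest difference of the condensin genes, from 9.69, 9.57 and 9.71 at 0 h to 8.86, 8.30 and 7.61 at 48 h (difference -1.40, SE 0.23, adjusted p = 0.000319). The 48 h change of SMC2 was larger than that of SMC4 by 0.91 (SE 0.29), with no overlap of the arrays, and the exact permutation test gave p = 0.1, the smallest that 3 against 3 arrays allow.

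NCAPG of condensin I was at 10.10, 9.91 and 9.81 at 0 h, still at 10.18, 9.82 and 10.19 at 12 h, and then at 8.92, 9.36 and 9.00 at 24 h and 8.31, 7.75 and 7.12 at 48 h. Its difference was -0.85 at 24 h against 0 h and -1.37 at 48 h against 24 h (adjusted p = 0.0268 and 0.0134). Its condensin II counterpart NCAPG2 differed by -0.57 at 12 h, where NCAPG differed by 0.12. NCAPD2 of condensin I and NCAPD3 of condensin II differed by -1.49 and -2.08 at 48 h, and the difference between these 2 changes, 0.58 (SE 0.34), had overlapping arrays (exact permutation p = 0.3). That between NCAPG and NCAPG2 at 48 h, 0.55 (SE 0.30), had overlapping arrays too (exact permutation p = 0.2). In all, 5 pairs of partners were compared at each later time, and at 48 h the adjusted p was 0.25 or more for each.

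**Figure D5:**
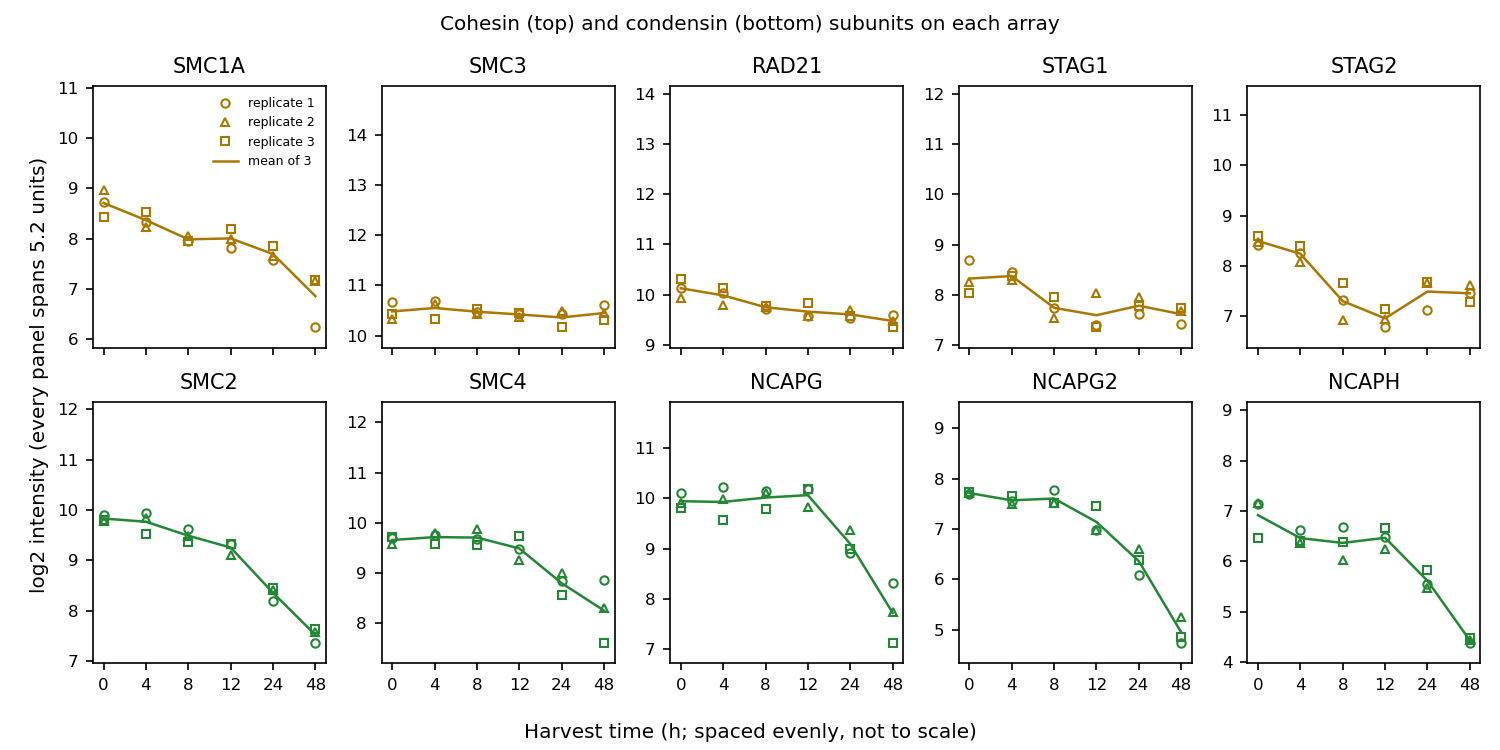
Log2 intensity of the 5 cohesin subunits (top) and 5 condensin subunits (bottom) on each array against harvest time in hours (spaced evenly), with a symbol for each replicate and a line through the mean of 3; every panel spans the same range. STAG2 has its lowest mean at 12 h, 6.96, SMC3 has means between 10.36 and 10.55, and the condensin genes have their lowest means at 48 h.

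Cohesin did not move as 1 block. SMC1A and SMC3 are the paired arms of the ring. SMC1A was at 8.72, 8.97 and 8.44 at 0 h, at 7.96, 8.06 and 7.95 at 8 h, at 7.57, 7.66 and 7.85 at 24 h and at 6.23, 7.16 and 7.17 at 48 h. None of these later groups overlapped the 0 h arrays, and the fall at 48 h was 3.61-fold (difference -1.85, SE 0.21, adjusted p = 7.85e-06). The earlier calls of SMC1A stood close to the threshold (adjusted p = 0.0493 at 8 h and 0.049 at 12 h) and were lost under 16 and 14 of 25 alternatives.

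SMC3 was at 10.68, 10.34 and 10.43 at 0 h and at 10.60, 10.45 and 10.30 at 48 h, and its means stayed between 10.36 and 10.55 at all 6 times. At 48 h it differed by -0.03 (SE 0.15, adjusted p = 0.931), and the F test did not call it (adjusted p = 0.927). The change of SMC1A was below that of SMC3 by 1.82 at 48 h (SE 0.30), with no overlap of the arrays (exact permutation p = 0.1, the smallest possible, two-sided). At 8, 12 and 24 h the same difference was -0.72, -0.65 and -0.90, again with no overlap (exact permutation test, adjusted p = 0.167 at each over 5 pairs).

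STAG2 and STAG1 are alternative subunits of the ring, each found in a separate form of cohesin. STAG2 was at 8.42, 8.47 and 8.60 at 0 h, at 8.25, 8.08 and 8.39 at 4 h, and at 7.31, 6.93 and 7.65 at 8 h. At 12 h it was at 6.78, 6.94 and 7.15, at 24 h at 7.11, 7.67 and 7.68, and at 48 h at 7.46, 7.62 and 7.29. It was thus lowest at 12 h (difference -1.54, SE 0.19, adjusted p = 5.74e-05), and differed by -1.04 at 48 h (adjusted p = 0.000922). Its difference from 0 h at 8 h was -1.19 (adjusted p = 0.000872) and stayed between -1.37 and -1.01 over the alternatives, the one without replicate 2 of 8 h included. The rise from 12 h to 24 h by 0.53 was not called (adjusted p = 0.259).

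STAG1 was at 8.69, 8.26 and 8.03 at 0 h, at 7.41, 8.03 and 7.36 at 12 h and at 7.42, 7.69 and 7.75 at 48 h. It was called at 12 h (-0.73, adjusted p = 0.028) and 48 h (-0.71, adjusted p = 0.0192), and not at 24 h (-0.54, adjusted p = 0.0895). The 12 h call was lost under 5 of 25 alternatives. Over the 25 alternatives the adjusted p at 48 h ran up to 0.108, the value with replicate 1 of 0 h removed; the call was also lost with replicate 1 of 48 h removed, with quantile normalization and with only the 2 times fitted. At 8 h the change of STAG2 was below that of STAG1 by 0.61 (SE 0.24), with no overlap of the arrays (exact permutation p = 0.1, adjusted p = 0.167 over 5 pairs). At 4, 12, 24 and 48 h the arrays of that difference overlapped.

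RAD21, the kleisin that closes the ring and is cut by separase at anaphase, was at 10.13, 9.95 and 10.31 at 0 h and at 9.61, 9.48 and 9.35 at 48 h. Its difference of -0.65 at 48 h (SE 0.14, adjusted p = 0.00354) was a 1.57-fold fall, the smallest among the members called at that time. At 24 h it differed by -0.52 (adjusted p = 0.0198).

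CENPJ, which sets the length of centrioles, was at 7.64, 7.62 and 7.43 at 0 h, at 7.65, 7.30 and 7.54 at 12 h, at 5.78, 6.55 and 6.98 at 24 h and at 5.47, 5.84 and 5.66 at 48 h. It differed by -1.13 at 24 h and -1.91 at 48 h (adjusted p = 0.00726 and 5.45e-05), and the arrays of both times lay below those of 0 h.

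Other genes of the same pathways were followed in a list of 41, of which 36 were measured, and at 48 h 20 of these fell and 0 rose, beside 8.11% of all genes lower and 6.92% higher. At 8 h 5 of the 36 were called lower, where 3.18% of all genes were: MAD2L1 (-1.08), BIRC5 (-0.999) and BUB1B (-0.58) of the spindle checkpoint and passenger genes, CENPV (-1.14) and CTCF. Calls at 8 h were thus not limited to cohesin and its regulators. These 5 calls were not checked without replicate 2 of 8 h, and that of BUB1B stood close to the threshold (limma adjusted p = 0.049). Of the 11 spindle checkpoint and passenger genes, which hold back anaphase until kinetochores are attached, 9 fell (median -2.41), most of all BIRC5, by 3.90, and 2 were not called, MAD1L1 (-0.01) and INCENP (0.04). In the centromere list 3 of 5 fell, led by ITGB3BP, which encodes the centromere network subunit CENP-R (-2.53). CENPC, the CENP-A-binding base of the network, fell by 1.10. In the list for condensin and chromosome structure 2 of 4 fell. These were TOP2A and KIF4A, which work with condensin in shaping chromosomes and fell by 2.06 and 2.55. NCAPH2, the condensin II kleisin, was at a low 4.09 at 0 h and differed by -0.18 (adjusted p = 0.554). PHF8 was not called either (-0.64, limma adjusted p = 0.382).

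Of the 12 genes that load, release or cleave cohesin, 6 fell at 48 h, with a list median of -0.44. The largest fall was that of ESCO2, which acetylates SMC3 in S phase, by 2.08 (adjusted p = 0.00267). ESPL1, which encodes separase, fell by 1.28 and CDCA5, which encodes sororin, by 1.04. PDS5A and PDS5B differed by -0.51 and -0.64. The loop-anchoring factor CTCF had its largest difference at 4 h, -1.20 (adjusted p = 0.000978), the 1 call of the list at that time, where 0.586% of all genes were lower. By 8 h its difference was -1.04, followed by -0.86 (12 h), -0.60 (24 h) and -0.71 (48 h), each called. From 4 h on, 0 of its steps between consecutive times were called. At no single time were the loader genes NIPBL and MAU2, the release factor WAPL, ESCO1, the SMC3 deacetylase HDAC8 or PTTG1 (securin) called. Their differences at 48 h ran from -0.37 (PTTG1) to 0.24 (MAU2). The F test over all times did call PTTG1 (adjusted p = 0.00326). Its differences were 0.42 at 4 h, 0.45 at 8 h and -0.65 from 12 h to 24 h (limma adjusted p = 0.298, 0.149 and 0.0785). NIPBL differed by 0.55 at 4 h (limma adjusted p = 0.109). Of the 4 meiotic cohesin genes, 0 were called by limma and 0 had an unadjusted p under 0.05 at 48 h. SMC1B (2.44) and RAD21L1 (2.45) were below the lower quartile of 3.04 already at 0 h, so a fall of these genes could not be seen. STAG3 and REC8 were dim too, at 4.71 and 4.53.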

How the data were processed

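The deposited values are log2 intensities, 1 per probe set and array, that the authors normalized between arrays. No label names the log base; base 2 was taken because the values end below 13, the range that log2 of scanner readings fills. Software, background correction and build are not given in the sources used here. Of 33297 probe sets, 19460 named 1 gene, 1754 several and 12083 none here, and 19429 of the first matched RefSeq by gene ID. Each of 18417 genes was read from its probe set with the highest mean. No filter on dim genes was applied. For arrays, their number limits the precision.

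Limma 3.58.1 in R 4.3.3 fitted harvest time to all 18 arrays (12 residual and 5.58 prior degrees of freedom). Each later time was tested against 0 h and against the time before it (moderated tests, two-sided), and the F test asked for any difference from 0 h. Benjamini-Hochberg adjustment ran over all genes within a comparison, with a threshold of 0.05. The fit was tested on simulated data. Fold changes are 2 raised to the log2 difference. A mean near or below the lower quartile of an array's probe sets was treated as near background. Partner genes were compared by the difference of their changes, with an SE from the spread between arrays and an exact two-sided permutation test in scipy 1.17.1. Same-numbered arrays deviated together (every correlation of their deviations over 0.1) in 2 of 15 pairs of times, 0 h with 8 h and 4 h with 8 h, and in 20 of 45 pairs of arrays over all times (range -0.24 to 0.60). The labels do not say what a number marks. The fits have no block, and the permutation tests of partner genes do not use the pairing. Plots came from matplotlib 3.10.9 under Python 3.11.15.

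The members and lists were chosen with earlier results of these data known. All members are named. Values on each array are given, by rule, for the 3 members of each complex with the largest difference at 48 h among those past the F test, the member with the smallest, any that rose, and CENPJ; others were chosen after their values were seen. Promoters follow the rule stated beside them, outside chromosome 8. Pathway genes not named individually are counted. As alternatives, each array was left out in turn, only the 2 times compared were fitted, arrays were weighted, quantile-normalized or centred on the median, the replicate number was a block, the dimmest 25% of genes were dropped, or all probe sets of a gene were averaged.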

Additional observations from a re-analysis of the deposited data

How the results depend on the processing

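The 48 h calls depended little on the processing: under 25 alternatives the number of members called lay between 40 and 41, and 40 of the 41 genes kept their call under each, STAG1 being the exception. Of the 33 members called at 24 h, 23 kept their call under every alternative, of the 8 at 12 h 1 did and of the 3 at 8 h 1 did, in both cases STAG2. Leaving out 1 array gave 26 to 36 calls at 24 h, 1 to 11 at 12 h, 1 to 3 at 8 h, 0 to 1 from 4 h to 8 h, 3 to 14 from 12 h to 24 h and 4 to 8 from 24 h to 48 h. With array weights the counts were 1 at 4 h, 2 from 4 h to 8 h, 2 from 8 h to 12 h, 25 from 12 h to 24 h and 15 from 24 h to 48 h. Quantile normalization gave 15 from 12 h to 24 h and 1 from 4 h to 8 h, and dropping the dimmest 25% of genes also 1 from 4 h to 8 h. Fitting only the 2 times compared gave 1 at 8 h and 0 from 24 h to 48 h, with fewer arrays to estimate the spread. The cause of the other shifts was not tested. With the replicate number as a block the count was 10 from 24 h to 48 h and 1 from 4 h to 8 h; the 3 calls at 8 h against 0 h were kept. Differences near 0 changed sign: SMC3 at 48 h was 0.0776 with quantile normalization and ran from -0.105 to 0.067 as 1 array was left out, above 0 where that was replicate 1 of 0 h or 3 of 48 h. NSL1 at 48 h ran from -0.357 to 0.127, above 0 with replicate 3 of 48 h removed. Centring each array on its median moved the median of all genes at 48 h by -0.14 and at 12 h by -0.12.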
